A study of Mus musculus with 2 samples.

Results

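The SR proteins and the hnRNP proteins are the main families of RNA-binding splicing regulators in animal cells, and 33 genes that encode them were measured in total RNA of newborn mouse adrenal gland. The members were found by name in the annotation used for the files, as symbols of the form Srsf with a number, Tra2a, Tra2b or Hnrnp with any ending. Of 35 matching symbols, the 33 with at least 1 transcript annotated as protein_coding were kept, out of 55536 annotated genes in the tables, and the pseudogenes Hnrnpa1l2-ps and Hnrnpa1l2-ps2 were left out by this rule. The 33 genes were 13 SR protein genes (Srsf1 to Srsf7, Srsf9 to Srsf12, Tra2a and Tra2b) and 20 hnRNP genes. The samples were 2 libraries of 1 group, adrenal gland tissue of 4-day-old male B6CASTF1/J mice, and the series has no treatment, mutant or second age. This strain is an F1 hybrid of C57BL/6J and CAST/EiJ, 1 library was made per biosample from 300 ng of total RNA with ERCC spike-ins, and the comparison that the design allows is that of replicate 2 with replicate 1. The sample characteristics number the males 03 and 04, while a second description and the donor label are the same for both, so the spread between them may in part be technical, and tests of 1 library against the other cover counting error only. Both libraries were quantified on mm10, and what the CAST/EiJ alleles did to the counts was not tested.

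SR proteins carry RNA recognition motifs and a region rich in arginine and serine, bind enhancer sequences in exons and help the spliceosome to recognise the exon. The hnRNP proteins coat nascent pre-mRNA, often repress nearby exons, and also act in export, stability and translation of mRNA. Many genes of both families are known to limit their own output by unproductive splicing, in which the protein promotes an isoform of its own transcript with a premature stop codon, either by inclusion of a cassette known as a poison exon or by splicing downstream of the stop codon. Such isoforms are substrates of nonsense-mediated decay (NMD), which recognises a stop codon that lies upstream of an exon junction. Other isoforms keep an intron and are often held in the nucleus. Total RNA holds nuclear as well as cytoplasmic transcripts, so both kinds can be counted.

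The gene tables held 30292851 expected counts in replicate 2 and 32231301 in replicate 1. All 8 adrenal cortex markers and all 7 chromaffin markers were at 1 TPM (the length-scaled unit of transcript abundance) or more, with summed levels of 6813 TPM in replicate 2 and 8785 TPM in replicate 1 for the cortex list, and 1928 and 2135 TPM for the chromaffin list. Replicate 2 stood apart in markers of liver, a neighbouring organ, all 10 of which were present in both libraries and summed to 6047 TPM in replicate 2 against 234 TPM in replicate 1. The 8 erythroid markers summed to 4425 TPM in replicate 2 and 2413 TPM in replicate 1, the 8 skeletal muscle markers to 1207 and 655 TPM, and the 8 adipocyte markers to 846 and 689 TPM. No marker of these lists was listed at 0 in both libraries. Their part in the results below was not tested, and in bulk tissue fewer cells of a type and less RNA per cell cannot be told apart.

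SR protein and hnRNP genes were among the well expressed genes of the gland. All 33 had a mean of 1 TPM or more, the level taken as detected, against 60.7% of the 21901 genes with a protein_coding transcript, and 32 had 20 TPM or more, against 19% of those genes. Their median level was 73.8 TPM, against 11.5 TPM over the 13283 detected genes. The 13 SR genes summed to 924 TPM in replicate 2 and 830 TPM in replicate 1, with a median member at 56.5 TPM, and the 20 hnRNP genes to 2459 TPM in replicate 2 and 2208 TPM in replicate 1, with a median member at 94.2 TPM. Levels below are TPM, which is scaled by length, and were taken from the alignment-based gene table.

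Hnrnpk, which encodes a poly-C binding protein with KH domains, had the highest level, 366 TPM in replicate 2 and 330 TPM in replicate 1 (348 ± 25.1, SD, n = 2). Hnrnpa2b1, whose product is also known to sort RNA for transport, reached 275 TPM in replicate 2 and 252 TPM in replicate 1, and its values both lay below those of Hnrnpk. Hnrnpl, a CA-repeat binding splicing regulator, had 257 and 206 TPM in the same order, and overlapped with Hnrnpa2b1. Srsf5 was the highest SR gene with 209 TPM in replicate 2 and 173 TPM in replicate 1 (191 ± 25.6, SD, n = 2). Below it came Hnrnpa3, with 186 TPM in replicate 2 and 168 TPM in replicate 1, and Hnrnpu, with 168 TPM in replicate 2 and 180 TPM in replicate 1. Hnrnpu encodes the scaffold attachment factor that binds both chromatin and RNA. Hnrnpf, a binder of G runs, had 158 and 152 TPM in replicates 2 and 1, and Hnrnpa1, the classical antagonist of Srsf1 in splice site choice, had 143 and 118 TPM.

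The other members over 100 TPM on average were Hnrnph1 (135 TPM in replicate 2 and 121 TPM in replicate 1), Hnrnpab (124 and 118 TPM), Srsf2 (119 and 105 TPM), Srsf1 (106 and 118 TPM) and Hnrnpd (120 and 82.8 TPM). Hnrnpd encodes AUF1, a protein that binds AU-rich elements and speeds mRNA turnover. A middle group between 40 and 90 TPM on average held Hnrnpc, Srsf6, Srsf3, Hnrnpm, Hnrnpa0, Srsf11, Hnrnpdl, Srsf7, Hnrnpul1, Srsf10, Tra2b and Hnrnpr, whose means ran down to 43.8 TPM from 86.9 TPM. Of 32 pairs of neighbours in the order of mean levels, 23 overlapped in their library values. The 9 steps where neighbours did not overlap included Hnrnpk over Hnrnpa2b1, Hnrnpu over Hnrnpf, Hnrnpf over Hnrnpa1 and Hnrnpr over Hnrnph2.

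Levels were lower in Hnrnph2 (33.7 TPM in replicate 2 and 32.8 TPM in replicate 1), Srsf9 (29.8 and 30.1 TPM), Srsf4 (31.6 and 27.5 TPM), Hnrnpul2 (26.1 and 28.5 TPM), Hnrnpll (25.7 and 23.6 TPM), Tra2a (20.8 and 27.1 TPM) and Hnrnph3 (23.0 and 21.9 TPM). Hnrnpll is best known as the regulator of Ptprc (CD45) splicing in T cells, and Tra2a and Tra2b encode the mammalian counterparts of the fly sex determination factor Transformer-2. Srsf12, an SR gene known from testis and brain, stood far below all others with 1.80 TPM in replicate 2 and 0.96 TPM in replicate 1, from 70 and 55 expected counts, and was under the detection level in replicate 1. The nearest member above it, Hnrnph3, was over 10-fold higher in both libraries.

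**Figure D1:**
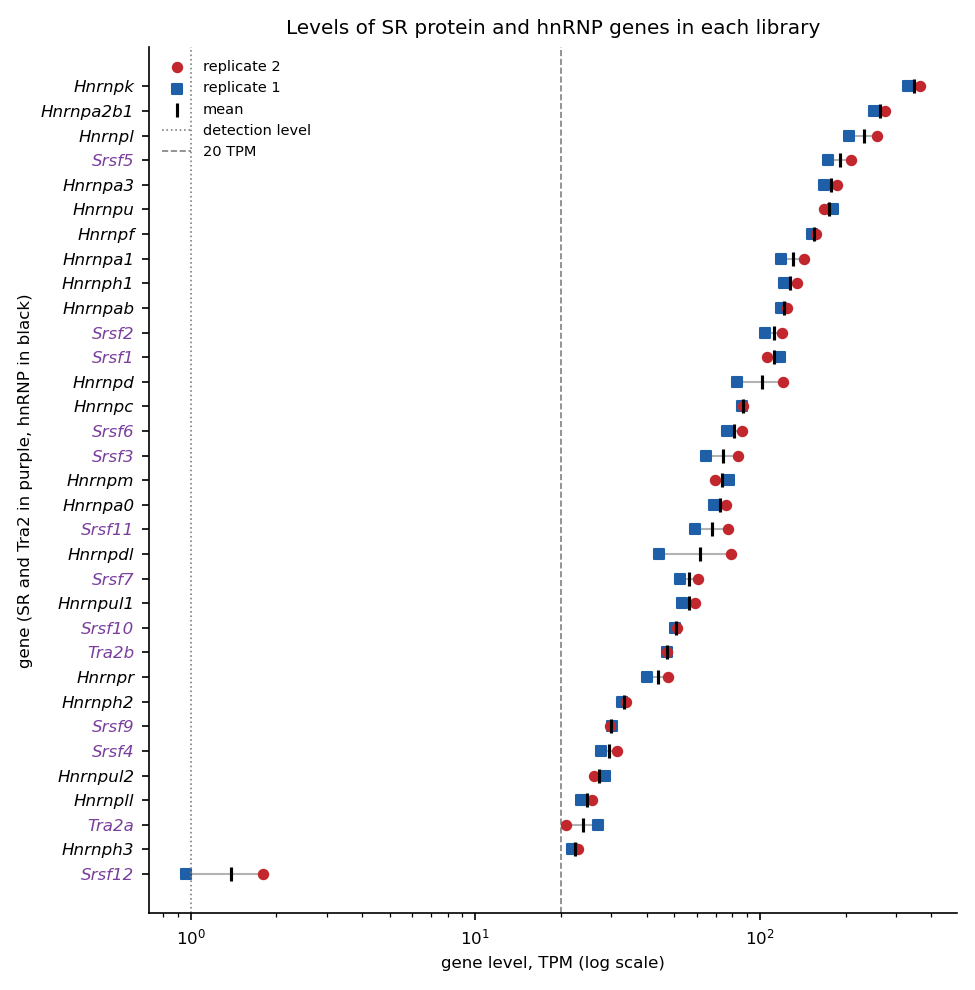
Gene level in TPM (log axis) of the 33 SR protein and hnRNP genes, with replicate 2 as red circles, replicate 1 as blue squares and the mean as a black tick. All genes but Srsf12 lie right of the dashed line at 20 TPM, Hnrnpk is highest with a mean of 348 TPM, and the widest gap between the libraries on this axis among genes over 20 TPM is that of Hnrnpdl (79.0 TPM in replicate 2, 44.3 TPM in replicate 1).

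Several members have near-identical copies elsewhere in the genome that can take or give reads. Alignment of each member's highest protein_coding transcript to all annotated transcripts, at 95% identity or more over 300 bases or more, found such copies in other genes for 12 of the 33 members. Copies of Srsf3 had a summed level equal to 49.5% of the gene's own, mostly the processed pseudogene Gm9761 at 28.3 TPM. For Hnrnpa1 the sum was 47.1%, mostly Gm10052 at 60.4 TPM, for Hnrnpa3 43.1% over 29 copies, and for Tra2b 25.6%, mostly Gm10254. The levels of these 4 genes are therefore uncertain. For Srsf5 the copies came to 10.8% and for Hnrnpk to 7.12%, and for the other 6 with copies to at most 2.67%. Another gene at 1 TPM or more overlaps 9 of the members, the highest being March2 on the strand of Hnrnpm (30.5 TPM) and Cox20 opposite Hnrnpu (29.7 TPM). The use of strand in the counting is not stated in the labels or file headers, so reads of such pairs may have been mixed.

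A large part of the RNA of these genes was assigned to transcripts that are not annotated as protein_coding. The annotation gives the members 296 transcripts, of which 139 are protein_coding, 39 nonsense_mediated_decay, 80 retained_intron and 38 processed_transcript, the class for transcripts without an open reading frame. Of the summed TPM of all members, 33.9% in replicate 2 and 33.3% in replicate 1 lay outside protein_coding transcripts. The median protein_coding share per member was 69.3%, against 88.7% over 13280 detected genes. The members also had more annotated transcripts, a median of 7 against 5, and for genes with a further class annotated the medians were 60.3% over 28 members and 82.5% over 10451 genes. The share was under 50% in 8 members, against 9.43% of detected genes. It was 90% or more in 11 members, among them Hnrnpf, Hnrnpab, Hnrnpa0, Hnrnph2 and Srsf12, for which no other class is annotated. The share of all genes at 90% or more was not counted.

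When levels are counted over protein_coding transcripts alone, the order of the genes changes. Hnrnpk remained first with 268 TPM in replicate 2 and 232 TPM in replicate 1, while Hnrnpu, 6th by gene level, was 25th with 24.4 and 25.03 TPM. Hnrnph1, 9th by gene level, was 19th with 34.1 TPM in replicate 2 and 43.7 TPM in replicate 1. Srsf3 was 27th with 26.1 and 19.6 TPM, and Srsf11 was 29th with 16.5 and 18.1 TPM. The near copies of Srsf3 summed to 42.9 TPM in replicate 2 and 30.3 TPM in replicate 1. How reads shared with them change its rank was not tested. Hnrnpf, Hnrnpab, Hnrnpa0, Hnrnph2 and Srsf12 have only protein_coding transcripts annotated, so their shares are 100% by annotation.

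**Figure D2:**
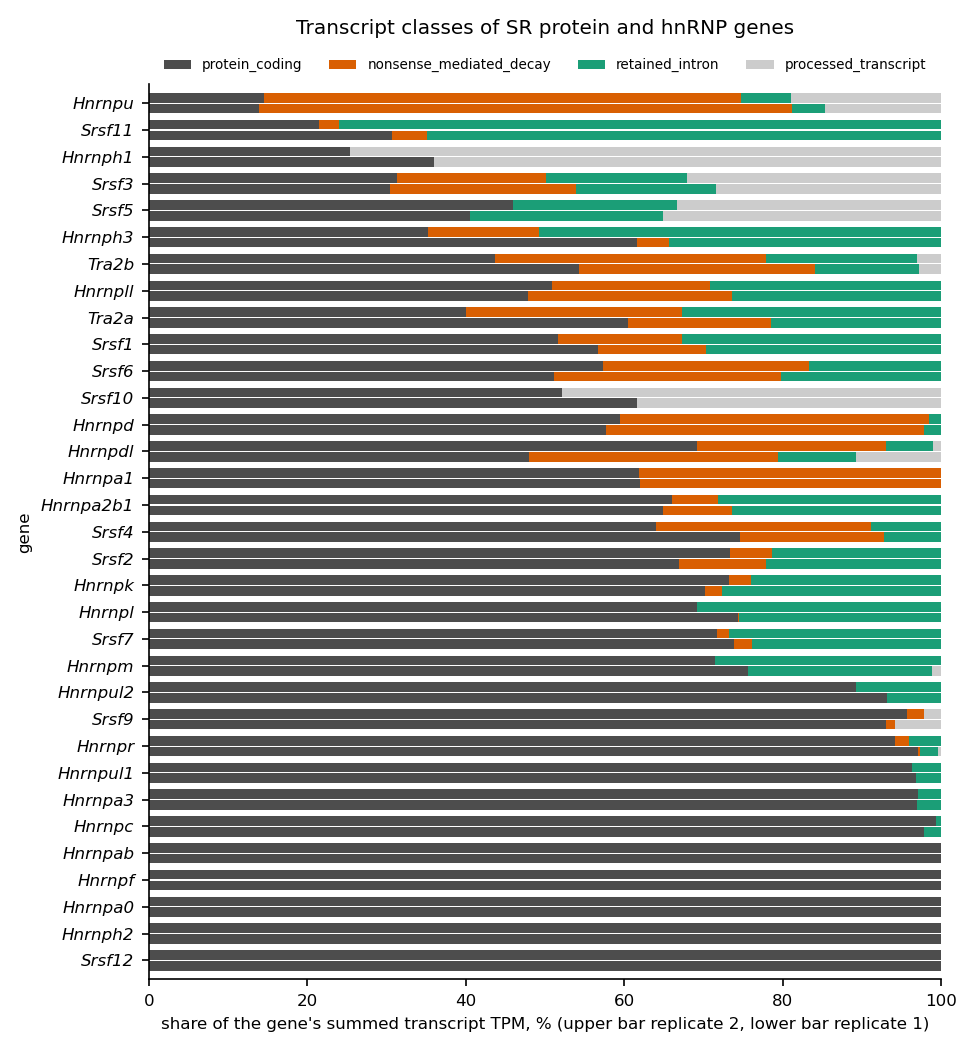
Share of each gene's summed transcript TPM in 4 annotation classes in the alignment-based tables, with replicate 2 as the upper and replicate 1 as the lower bar of each gene, ordered by the mean protein_coding share. Orange parts (nonsense_mediated_decay) are widest in Hnrnpu, Hnrnpd and Hnrnpa1, green parts (retained_intron) in Srsf11 and Hnrnph3, and light grey parts (processed_transcript) in Hnrnph1. Dark grey is protein_coding.

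NMD-class transcripts were annotated for 21 members, and took 10% or more of the gene's TPM in 11 of these, against 33.6% of 3715 detected genes with such a transcript. The median share was 14.6% over the 21 members and 4.55% over those genes. In the alignment-free tables, 13 of 21 members were at 10% or more, against 42.5% of genes, and all 11 of the first count were among them. The 11 members were 6 SR genes (Srsf1, Srsf3, Srsf4, Srsf6, Tra2a and Tra2b) and 5 hnRNP genes (Hnrnpa1, Hnrnpd, Hnrnpdl, Hnrnpll and Hnrnpu). The 39 NMD-class transcripts of the members all have an annotated stop codon that lies over 50 bases upstream of the last exon junction, the least being 52 bases, which is how the annotation defines the class.

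The transcripts fell into 3 structural kinds by where this stop codon lies. In 9 genes (7 SR genes and 2 hnRNP genes) it lies in an exon that overlaps no exon of any protein_coding transcript of the gene, the arrangement of a poison exon. Among all 3715 genes, 26.5% have such a transcript. These transcripts made up 10% or more of TPM in 5 of the 9 members, against 19.5% of the 986 genes that have one. The 5 genes were Tra2b, Hnrnpll, Tra2a, Srsf4 and Srsf3, and the reading frame inside their exons is printed here because it shows how soon after the splice junction translation would end. Each sequence runs 5′ to 3′ on the gene's strand, between the first base of the exon and the stop codon, which is in capitals, and was read out of the GENCODE M21 transcripts on mm10.
Srsf3-201, chr17:29039454-29039487, plus strand: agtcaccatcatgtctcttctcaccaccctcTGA
Tra2b-206, chr16:22259181-22259261, minus strand: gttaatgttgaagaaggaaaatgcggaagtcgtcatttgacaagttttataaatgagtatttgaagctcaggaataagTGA
Tra2a-202, chr6:49252965-49253108, minus strand: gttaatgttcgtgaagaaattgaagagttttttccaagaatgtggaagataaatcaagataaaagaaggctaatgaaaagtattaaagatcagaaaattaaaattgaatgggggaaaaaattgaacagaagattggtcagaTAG
Srsf4-203, chr4:131884276-131884390, plus strand: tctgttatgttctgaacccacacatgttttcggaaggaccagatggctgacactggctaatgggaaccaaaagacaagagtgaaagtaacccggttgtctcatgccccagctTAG
Hnrnpll-203, chr17:80044976-80045022, minus strand: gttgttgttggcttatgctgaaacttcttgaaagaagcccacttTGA
The stop codon follows 31 coding bases in the Srsf3 exon, 44 in the Hnrnpll exon, 78 in the Tra2b exon, 112 in the Srsf4-203 exon and 141 in the Tra2a exon. The exons themselves are longer, 456 bases in Srsf3-201, 276 in Tra2b-206, 306 in Tra2a-202, 207 in Srsf4-203 and 83 in Hnrnpll-203. Srsf4-204, not printed, had the higher TPM of the Srsf4 transcripts with this stop codon. Its stop exon is 188 bases long with 93 bases before the stop codon. That exon is the first of the transcript as annotated, so no splice junction precedes the stop codon there. The exons of the Tra2 paralogs begin with the same letters, gttaatgtt, and both lie directly after the first exon of the printed transcript.

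Tra2b (chr16:22244549-22266005, minus strand) had the highest share of this kind in the alignment-based tables, 34.2% of its TPM in replicate 2 and 29.9% in replicate 1. Its exon is known in mammals as a target of the Tra2b protein itself. In the alignment-free tables the share was 25.3% in replicate 2 and 13.6% in replicate 1, and its mean was the lowest of the 5 genes. When retained_intron and processed transcripts that also cover this stop codon are added, the alignment-based share came to 48.3% in replicate 2 and 42.3% in replicate 1. The alignment-free share of the same transcripts was 42.2% in replicate 2 and 29.1% in replicate 1. The main single transcript was Tra2b-206, with 13.1 TPM in replicate 2 and 11.0 TPM in replicate 1, next to the protein_coding Tra2b-204 with 14.1 and 17.0 TPM. How reads shared with the Tra2b pseudogene copies described above change these shares was not tested.

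Tra2a (chr6:49243924-49264033, minus strand) had 27.3% of its TPM in the transcript with the poison exon in replicate 2 and 18.1% in replicate 1, and 52.5% and 36.6% by the alignment-free tables. Both kinds of table put the share higher in replicate 2. Its protein_coding share was 40.1% in replicate 2 against 60.4% in replicate 1, and its retained_intron share 32.6% against 21.4%. Protein_coding Tra2a transcripts together stood at 8.34 TPM in replicate 2 and 16.4 TPM in replicate 1.

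Srsf4 (chr4:131873617-131901706, plus strand), a large SR protein, had 27.1% of its TPM in the 2 transcripts with the poison exon in replicate 2 and 18.2% in replicate 1, with alignment-free values of 25.8% and 18.4%. Hnrnpll (chr17:80029487-80062334, minus strand) had 19.98% in replicate 2 and 25.7% in replicate 1, with alignment-free values of 30.3% and 34.5%. Srsf3 (chr17:29032628-29043373, plus strand), the smallest SR protein and a known regulator of its own poison exon, had 18.8% in replicate 2 and 23.5% in replicate 1, with alignment-free values of 24.1% and 28.3%. With the other transcripts that cover the same stop codon, the Srsf3 share was 29.998% in replicate 2 and 35.3% in replicate 1. By TPM these 3 genes had 18% or more in both libraries and both kinds of table. By expected counts the Srsf4 share was lower, 12.04% in replicate 2 and 7.81% in replicate 1. How reads shared with the Srsf3 copies described above change the Srsf3 shares was not tested.

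The other 4 genes with such an exon had little RNA in the NMD-class transcripts themselves. Srsf11 had 2.60% of TPM in replicate 2 and 4.53% in replicate 1, Srsf7 had 1.55% and 2.22%, Srsf9 had 2.15% and 1.10%, and Hnrnpl was listed at 0 in replicate 2 and had 0.16% in replicate 1. When all transcripts that cover the stop codon are added, Srsf11 came to 16.6% in replicate 2 and 14.4% in replicate 1 for that of Srsf11-206. For that of Srsf11-212 it came to 26.7% and 25.4%. The alignment-free values were 22.8% and 18.5% for the first and 20.2% and 17.8% for the second. The Srsf11 transcripts added beyond the NMD class were retained_intron ones. In Srsf7 most RNA that covers the stop codon was in retained_intron transcripts. The share of all covering transcripts was 20.99% in replicate 2 and 22.7% in replicate 1, with alignment-free values of 25.5% and 27.2%. This Srsf7 stop codon, shown for comparison with that of Srsf3, follows 25 coding bases in an exon of 460 bases.
Srsf7-203, chr17:80205054-80205081, minus strand: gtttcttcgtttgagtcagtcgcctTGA

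**Figure D3:**
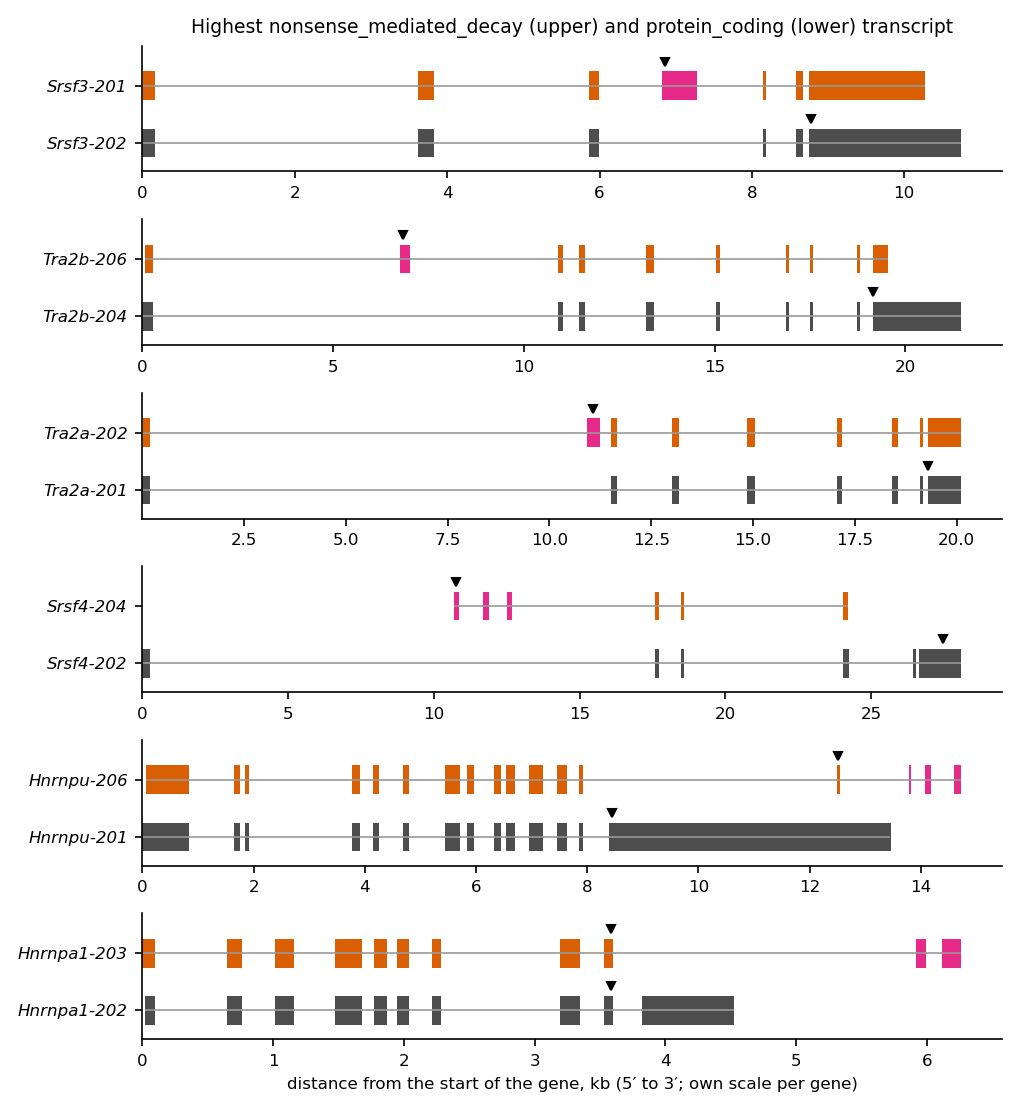
Exons (boxes) and introns (lines) of the NMD-class transcript of highest TPM (orange, upper) and the protein_coding transcript of highest TPM (grey, lower) for 6 genes, by distance in kb from the start of the gene, with the annotated stop codon as a black triangle and exons that overlap no protein_coding exon in pink. In Srsf3, Tra2b, Tra2a and Srsf4 the stop codon of the upper transcript lies in a pink exon, while in Hnrnpu and Hnrnpa1 the pink exons follow the stop codon. Srsf4-204 is annotated without the first exon of the gene.

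In the second kind, found in 7 genes (Hnrnpa1, Hnrnpa2b1, Hnrnpd, Hnrnpdl, Hnrnph3, Srsf2 and Srsf6), the NMD-class transcript ends translation at the stop codon of a protein_coding transcript, and splicing downstream of it makes the transcript a candidate for decay. Of these 7 genes, 5 are hnRNP genes and 2 SR genes. The shared stop codon need not be that of the gene's main protein. In Srsf6-201 it lies 534 bases before the last junction with 4 junctions after it, and in Hnrnph3-204 609 bases with 6 junctions. In Hnrnpa1-203 and Srsf2-204 it lies 90 and 113 bases before, with 2 junctions after it in each. Whether the stop codons of Srsf6-201 and Hnrnph3-204 lie early in the main reading frame was not examined. Hnrnpa1 (chr15:103240432-103246692, plus strand) had 38.1% of its TPM in this kind in each library with alignment-free values of 39.1% in replicate 2 and 37.7% in replicate 1. Its transcript Hnrnpa1-203 splices to exons beyond the end of the main transcript Hnrnpa1-202, which stood at 88.6 TPM in replicate 2 and 73.3 TPM in replicate 1. Hnrnpa1-203 alone had 37.5 and 34.8 TPM. The Hnrnpa1 pseudogene copies described above were not removed from these values.

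Hnrnpd (chr5:99955935-99978938, minus strand) had 36.3% of its TPM in transcripts of the second kind in replicate 2 and 34.4% in replicate 1, and 39.1% and 40.2% in all its NMD-class transcripts. The alignment-free tables gave 15.3% in replicate 2 and 21.3% in replicate 1 for the class, less than the alignment-based values in both libraries. Srsf6 (chr2:162931528-162937121, plus strand) had 26.0% in replicate 2 and 28.7% in replicate 1 in Srsf6-201, with alignment-free values of 31.6% and 34.9%. By expected counts it was 14.4% in replicate 2 and 16.3% in replicate 1. Srsf2, one of the first SR proteins known to regulate its own splicing downstream of the stop codon, had 5.35% in replicate 2 and 10.9% in replicate 1 in the alignment-based tables, and almost nothing in the alignment-free tables. There, 28.4% of Srsf2 TPM in replicate 2 and 31.8% in replicate 1 was in the processed_transcript Srsf2-205, which the alignment-based tables listed at 0.

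In the third kind the stop codon is the transcript's own but lies in sequence shared with protein_coding exons, and this kind was found in Hnrnpd, Hnrnpdl, Hnrnpk, Hnrnpr, Hnrnpu, Srsf1 and Srsf5. Hnrnpu (chr1:178321108-178337797, minus strand) had the highest NMD-class share of all members in the alignment-based tables, 60.2% of TPM in replicate 2 and 67.4% in replicate 1. The alignment-free tables gave 42.01% and 46.6%, and there Tra2a was above it in replicate 2 and below it in replicate 1. Hnrnpu-206 was the main one, with 76.3 TPM in replicate 2 and 89.5 TPM in replicate 1, and the protein_coding Hnrnpu-201 had 24.4 and 25.03 TPM. Hnrnpu-201 is 7640 bases long and Hnrnpu-206 is 2844 bases long, and by expected counts, which are not scaled by length, the NMD-class share was 47.5% in replicate 2 and 52.6% in replicate 1, beside 40.5% and 39.1% for protein_coding. Hnrnpu-206 shares the upstream exons of Hnrnpu-201 and skips most of its long last exon to reach exons further downstream.

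Hnrnpdl (chr5:100033577-100039664, minus strand), a paralog of Hnrnpd on the same chromosome, had NMD-class transcripts of both this kind and the preceding one, which together took 23.8% of its TPM in replicate 2 and 31.4% in replicate 1, with alignment-free values of 33.5% and 32.6%. Srsf1 (chr11:88047373-88053755, plus strand), one of the founding SR proteins and a proto-oncogene, had 15.6% in replicate 2 and 13.6% in replicate 1, in Srsf1-204. By expected counts the share was 6.31% in replicate 2 and 5.81% in replicate 1, under the 10% by which Srsf1 was counted above. That transcript uses only sequence of protein_coding exons and splices within the region behind its stop codon. Hnrnpk had 2.81% and 2.19% in replicates 2 and 1, and Srsf5 was listed at 0 in both in the alignment-based tables.

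Transcripts with a retained intron were annotated for 24 members, and took 10% or more of TPM in 15 of them, against 56% of 7718 detected genes with such a transcript, so the members' count lay near that of other genes. The alignment-free tables gave 16 of 24 members, against 57.2% of genes. The median share was 20.1% over the members and 12.0% over those genes. By family, 9 of 10 SR genes and 6 of 14 hnRNP genes reached 10%, with medians of 22.1% and 8.31%. The same counts in the alignment-free tables were 9 of 10 and 7 of 14.

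Srsf11 (chr3:158010473-158036639, minus strand) had by far the highest retained_intron share, 76.0% of TPM in replicate 2 and 64.8% in replicate 1, with alignment-free values of 59.3% and 53.5%. Its highest transcript in both libraries was Srsf11-208, a retained_intron transcript with 17.8 TPM in replicate 2 and 12.1 TPM in replicate 1, 82.3% of whose bases lie outside the protein_coding exons of the gene. The protein_coding Srsf11-202 stood at 10.7 TPM in replicate 2 and 11.6 TPM in replicate 1. Hnrnph3 had 50.8% in replicate 2 and 34.3% in replicate 1, but with alignment-free values of 32.4% and 21.2%, and it rests on the second lowest counts of any member, 737 in replicate 2 and 895 in replicate 1.

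Srsf1 had 32.7% of TPM in retained_intron transcripts in replicate 2 and 29.6% in replicate 1, and the alignment-free values were 25.3% and 20.8%. The larger part was Srsf1-203, with a mean share of 18.5%, and 0 of its 759 bases lie outside protein_coding exons of the gene. That part of the share therefore holds no sequence found only in introns. The Srsf1 value is bound to short transcripts, since by expected counts it was 10.2% in replicate 2 and 9.74% in replicate 1. Shares between 20% and 40% were found in both libraries for Tra2a (32.6% in replicate 2 and 21.4% in replicate 1), Hnrnpl (30.8% and 25.5%), Hnrnpll (29.1% and 26.4%), Hnrnpm (28.6% and 23.2%), Hnrnpa2b1 (28.2% and 26.4%), Srsf7 (26.7% and 23.9%), Hnrnpk (23.99% and 27.6%), Srsf2 (21.3% and 22.1%) and Srsf5 (20.7% and 24.3%). Of these, Hnrnpm was the most dependent on the table, with alignment-free values of 12.1% in replicate 2 and 10.8% in replicate 1. The largest part of the Hnrnpk share was Hnrnpk-215, with a mean of 14.5%, and 6.32% of its bases lie outside protein_coding exons. Expected counts gave Hnrnpk 10.6% in replicate 2 and 11.8% in replicate 1, Hnrnpm 14.5% and 10.3%, and Hnrnph3 31.04% and 17.6%, all lower than by TPM. They gave higher shares for Tra2a (48.7% and 35.6%) and Srsf5 (38.2% and 43.6%). Srsf3 reached 24.3% and 25.4% in the alignment-free tables, against 17.8% and 17.6% in the alignment-based ones.

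In 5 members the transcript of highest mean TPM was not protein_coding, against 6.87% of detected genes. They were Hnrnpu, with an NMD-class transcript, Srsf11 and Hnrnph3, with retained_intron transcripts, and Srsf5 and Srsf10, with processed transcripts. In replicate 2 alone the count was 7 and in replicate 1 alone it was 3. In the alignment-free tables it was 4 members (Hnrnph3, Hnrnpu, Srsf3 and Tra2a), against 9.32% of genes, so that Hnrnpu and Hnrnph3 were in both counts. Srsf10 (chr4:135855747-135869908, plus strand), a splicing repressor known from heat shock and mitosis, had 34.8% of TPM in Srsf10-207 in replicate 2 and 23.2% in replicate 1. Srsf10-207 is 717 bases long, and by expected counts its share was 11.1% in replicate 2 and 6.63% in replicate 1.

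Hnrnph1 (chr11:50376990-50386528, plus strand), a G-run binding regulator, has 15 processed transcripts annotated besides 3 protein_coding ones. Processed transcripts took 74.6% of its TPM in replicate 2 and 64.0% in replicate 1, with alignment-free values of 65.7% and 53.4%. Srsf5 had 33.4% in replicate 2 and 35.1% in replicate 1 in this class, but 16.7% and 17.6% by expected counts. In Srsf3 the class was made up almost wholly of the 518-base Srsf3-209 in the alignment-based tables, where it took 32.0% of TPM in replicate 2 and 28.4% in replicate 1, but 6.75% and 5.74% of the expected counts. In the alignment-free tables Srsf3-209 took 5.58% and 5.93%, and the class as a whole 32.4% and 26.6%.

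The kind of table changed some shares more than the libraries did. Averaged over both libraries, the NMD-class share of Hnrnph3 was 34.3% in the alignment-free tables and 9.08% in the alignment-based tables, the largest difference of any member. In Tra2a the protein_coding share was 26.9% in the alignment-free and 50.3% in the alignment-based tables, and in Hnrnpd the NMD-class share was 18.3% and 39.6% in that order. Hnrnpa1 lay almost on the diagonal with 38.4% alignment-free and 38.1% alignment-based. Gene levels in the alignment-free tables were higher by a median of 1.86-fold both for the members and for all genes detected in both, and Hnrnpr (2.56-fold) and Srsf7 (1.58-fold) lay furthest out among the members. Levels were therefore compared within 1 kind of table.

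**Figure D4:**
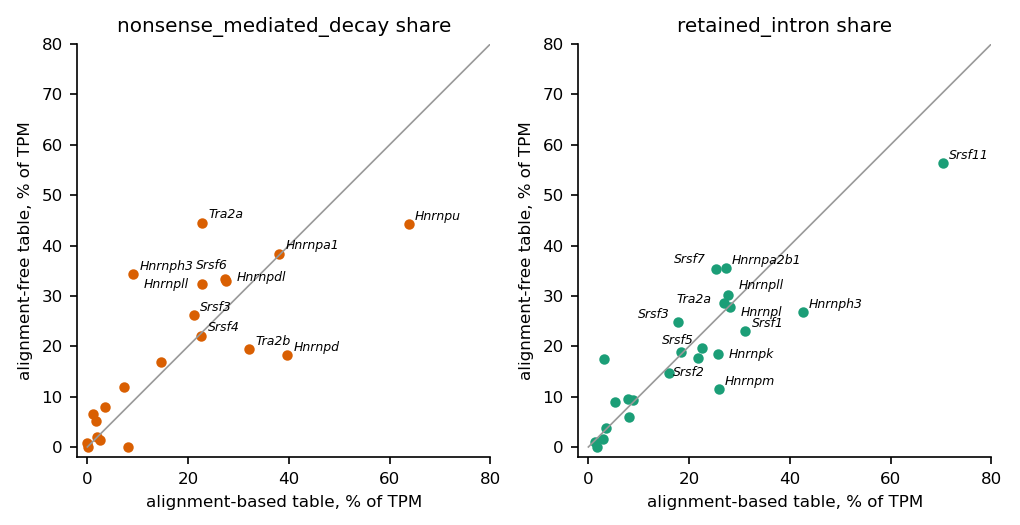
Mean share of gene TPM over both libraries in the alignment-free tables (vertical axis) against the alignment-based tables (horizontal axis), for NMD-class transcripts on the left and retained_intron transcripts on the right, 1 point per member with a share above 0 in either, and names where it reached 20%. The grey line marks equal shares, on which Hnrnpa1 and Srsf4 lie on the left, while Hnrnph3 (34.3% alignment-free, 9.08% alignment-based) and Hnrnpd (18.3%, 39.6%) lie furthest from it on either side.

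No member was called different between the libraries, a share close to that of all genes. Each of the 18160 genes with enough counts was compared by an exact two-sided binomial test of its expected counts against TMM library sizes, a comparison of 2 libraries and not of conditions. The test treats reads as independent molecules, so its p-values leave out variation between animals and between preparations. None of the 33 members passed an adjusted p (Benjamini-Hochberg) of 0.05 together with a 2-fold difference, against 3.98% of genes, 3.38% higher in replicate 2 and 0.606% higher in replicate 1. At any fold, 22 members passed the adjusted p, against 33.5% of genes: 13 were higher in replicate 2, against 15.9%, and 9 higher in replicate 1, against 17.6%. The counts behind the members, 55 to 15976 per library, let small differences pass. The log2 ratio of replicate 2 over replicate 1 had a median of 0.05 over the members and 0.00 over all genes. Its absolute value had a median of 0.16 over the members and 0.13 over 13222 detected genes with a protein_coding transcript.

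Hnrnpdl differed most, with 79.0 TPM in replicate 2 against 44.3 TPM in replicate 1 (log2 ratio 0.92, adjusted p = 6.4e-169, binomial test). In the alignment-based tables protein_coding transcripts carried most of this, with 54.7 TPM in replicate 2 against 21.3 TPM in replicate 1. Of the NMD class, Hnrnpdl-205 had 11.3 and 10.1 TPM, and Hnrnpdl-201 had 7.54 and 3.78 TPM. In the alignment-free tables the gene stood at 147 TPM in replicate 2 and 82.7 TPM in replicate 1. There the NMD-class share was 33.5% and 32.6% and the protein_coding share 59.5% and 55.3%, so both classes were higher in replicate 2. The ratio of the whole gene stayed between 0.87 and 0.95 under 6 other choices of library size, filter and table. Hnrnpd, its paralog, came second with 120 TPM in replicate 2 against 82.8 TPM in replicate 1 (log2 ratio 0.41, adjusted p = 2.1e-30). Srsf12 had a log2 ratio of 0.40 on few counts and did not pass (adjusted p = 0.27).

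The most negative ratios were those of Tra2a (-0.32, adjusted p = 1.1e-09), Hnrnpm (-0.30, adjusted p = 9.4e-20) and Hnrnpul2 (-0.25, adjusted p = 9.1e-14). In Tra2a the single transcript Tra2a-201, which is protein_coding, had 5.57 TPM in replicate 2 against 13.6 TPM in replicate 1, while the NMD-class Tra2a-202 had 5.67 TPM in replicate 2 against 4.91 TPM in replicate 1. The authors' intervals, whose level is not stated, did not overlap between the libraries for Tra2a-201 and did overlap for Tra2a-202. The same 2 libraries differ in their liver and erythroid markers as given above.

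**Figure D5:**
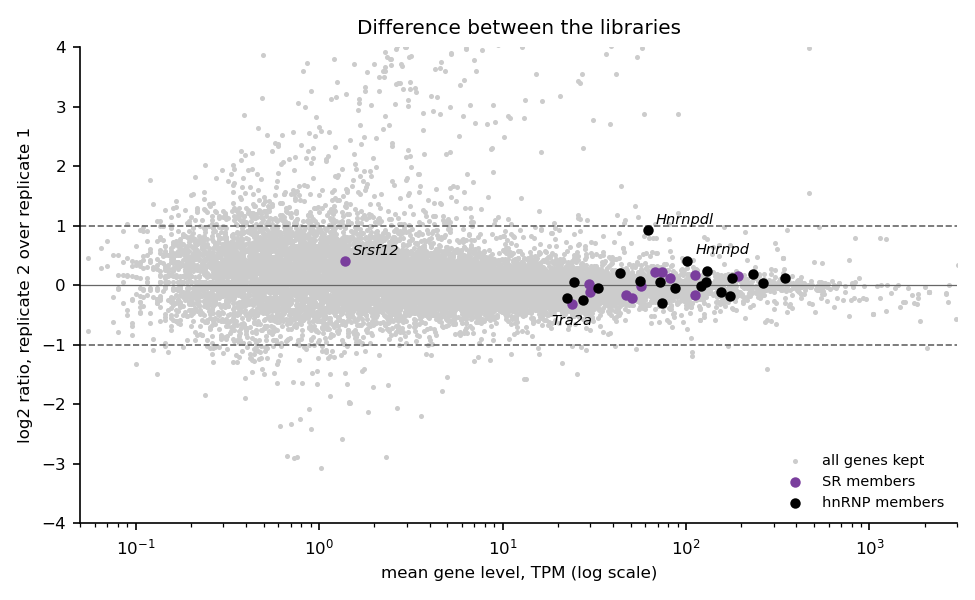
Log2 ratio of replicate 2 over replicate 1 (TMM-scaled expected counts) against mean gene level in TPM (log axis), for all genes kept (light grey), SR genes (purple) and hnRNP genes (black), with dashed lines at 2-fold. All 33 members lie within the dashed lines, Hnrnpdl highest at 0.92 and Tra2a lowest at -0.32. Another 129 genes lie outside the axes.

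Shares moved between the libraries in some members. Of the 28 members with a further class annotated, 9 had a protein_coding share lower in replicate 2 by 5 points or more. Among detected genes with a further class, 27.7% did. In 4 of the 28 the share was higher by 5 points or more, against 11.3% of those genes. Both counts of members lay near those of other genes. Those lower in replicate 2 were Hnrnph3 (35.2% in replicate 2, 61.6% in replicate 1), Tra2a, Hnrnph1 (25.4% and 35.97%), Tra2b (43.7% and 54.3%), Srsf4 (64.1% and 74.6%), Srsf10 (52.2% and 61.7%), Srsf11 (21.4% and 30.6%), Hnrnpl and Srsf1. Those higher in replicate 2 were Hnrnpdl (69.3% in replicate 2, 48.0% in replicate 1), Srsf2, Srsf6 and Srsf5. In 8 of the 13 the alignment-free tables gave a shift of 5 points or more in the same direction. The other 5 were Hnrnph3 (36.9% in replicate 2 and 40.8% in replicate 1 in those tables), Hnrnpdl (59.5% and 55.3%), Hnrnpl, Srsf2 and Srsf5. With 1 library per biosample these shifts have no replicate check.

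Genes that act with the SR and hnRNP proteins were measured in the same way, as lists of other pathway members. Over all genes, 3.98% were called, and at any fold 15.9% were higher in replicate 2 and 17.6% in replicate 1. Of detected genes with such a transcript, 33.6% reached 10% for the NMD class and 56% for retained_intron. The counts of each list stand beside these shares. All 20 SR-related and exon-definition proteins were detected, with a median of 33.2 TPM and 0 called between the libraries, led by Srrm2 (303 TPM in replicate 2 and 267 TPM in replicate 1), a scaffold protein of nuclear speckles, then Rbm39 (186 and 149 TPM) and Rsrp1 (129 and 161 TPM). At any fold 10 of them were higher in replicate 2 and 2 higher in replicate 1. Of those annotated, 7 of 13 had an NMD-class share of 10% or more and 13 of 18 a retained_intron share of 10% or more. The kinases that phosphorylate SR proteins and the importins that carry them to the nucleus were all detected (12 of 12, median 29.5 TPM). Clk1, a kinase whose own transcript is known for detained introns, was the highest, with 69.0 TPM in replicate 2 and 54.2 TPM in replicate 1. Of this, 49.2% and 45.6% was retained_intron and 4.06% and 7.17% protein_coding. Next came the importin Tnpo1 (50.2 and 53.6 TPM) and the kinase Prpf4b (36.7 and 36.8 TPM). At any fold 5 were higher in replicate 2 and 3 higher in replicate 1, and an NMD-class share of 10% or more was found in 5 of 8 annotated and a retained_intron share in 9 of 12. In this list 1 gene was called, the muscle kinase Srpk3 at 1.64 TPM in replicate 2 and 0.94 TPM in replicate 1 (log2 ratio of counts 1.43, adjusted p = 7.6e-06, binomial test). The TPM values of Srpk3 differ by less than 2-fold, so the call rests on counts, and the skeletal muscle markers were also higher in replicate 2 (1207 TPM, against 655 TPM in replicate 1). Their part in it was not tested.

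Of 50 other splicing regulators, 48 were detected and the median was 26.1 TPM. The shares over all genes given with the preceding lists apply to these lists too. Pcbp2, a poly-C binding relative of Hnrnpk, was highest, with 328 TPM in replicate 2 and 307 TPM in replicate 1. At any fold 16 genes were higher in replicate 2 and 13 higher in replicate 1, and 11 of 21 annotated had an NMD-class and 21 of 34 a retained_intron share of 10% or more. Ewsr1, an RNA-binding protein, stood at 185 TPM in replicate 2 and 136 TPM in replicate 1. The epithelial regulator Esrp2, at 2.54 TPM in replicate 2 and 0.79 TPM in replicate 1, was the only gene called (log2 ratio 1.83, adjusted p = 1.3e-16, binomial test). Khdrbs2 and Esrp1 were under 1 TPM. The spliceosome core had all 33 listed genes detected, a median of 36.8 TPM and 0 called, 6 genes being higher at any fold in each library. Its highest genes were Snrpg (155 TPM in replicate 2 and 176 TPM in replicate 1), Snrnp70 (177 and 150 TPM) and Prpf19 (94.3 and 97.2 TPM). In this list 2 of 12 genes with an NMD-class transcript reached 10%, with a median share of 1.98%, and 17 of 28 reached 10% for retained introns. All 18 genes of NMD and the exon junction complex were detected, with a median of 16.1 TPM and 0 called, led by Eif4a3 at 61.1 TPM in replicate 2 and 57.4 TPM in replicate 1, Magoh (39.5 and 36.2 TPM) and Rbm8a (29.8 and 30.2 TPM), all of the exon junction complex. At any fold 2 were higher in replicate 2 and 3 in replicate 1, and 1 of 4 and 8 of 10 reached 10% for the NMD and retained_intron classes.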

How the data were processed

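Adrenal gland total RNA of 2 biosamples was measured, 1 library each. The labels' protocols name a purification kit for animal tissue and a directional library kit. The authors deposited, per library, a gene table and a transcript table derived from a transcriptome alignment, and a transcript table made without an alignment, all on mm10 with GENCODE M21, per the notes deposited beside the tables. Aligner and quantifier: not given in the sources used here. Deposited values are expected counts (estimated counts in the alignment-free tables), fractional because ambiguous reads are divided among transcripts, and TPM, which the authors normalized for transcript length and depth, per the file headers. TPM gives short transcripts much weight, and the split of a gene's reads among overlapping transcripts is itself an estimate.

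Members were joined to the gene tables by gene ID. Members and lists were chosen with earlier results of these data known. Named were all members for their level, in full the 10 highest, those with an NMD-class or retained_intron share of 20% or more in either kind of table, those whose highest transcript is not protein_coding and those furthest apart between the tables, and of the other lists the 3 highest and any called, except 1 gene that is not reported here. Tra2a-201, Srsf2-205 and the genes under 1 TPM were named after their values were seen. Shares are percent of a gene's summed transcript TPM. Expected counts were rounded, genes filtered with filterByExpr and library sizes set by TMM in edgeR 4.0.16 (R 4.3.3). The exact two-sided binomial test doubles the smaller tail, with Benjamini-Hochberg adjustment over 18160 genes, and was tested on simulated data. Log2 ratios use a prior count of 0.5. Depth was 30292851 counts in replicate 2 and 32231301 in replicate 1, with 1.06% spike-in counts in each in addition, and 26248 rows with a number for a gene ID held 2 and 3 counts and were left out. Stop codons and exons were read from the GENCODE M21 annotation, and near copies were sought with BLAST. Alternatives covered DESeq2 1.42.0 size factors, other library sizes, filters, thresholds and tables.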

Additional observations from a re-analysis of the deposited data

How the results depend on the processing

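No paired analysis was possible because the series has 1 group and its 2 libraries are the replicates themselves. The median level of the members was 73.8 TPM, 134.9 TPM in the alignment-free tables and 194.5 TPM when TPM was rescaled over protein_coding genes alone, both of which move all genes. The median protein_coding share was 69.3%, 62.7% in the alignment-free tables, 77.5% by expected counts, and 67.0% to 69.2% with 1 replicate left out. The median NMD-class share was 14.6%, 18.3% alignment-free and 9.93% by expected counts. The median retained_intron share was 20.1%, 18.1% alignment-free, 12.9% by expected counts and 19.9% to 20.8% with 1 replicate left out. Members whose highest transcript is not protein_coding numbered 5, and 3 to 7 with 1 replicate left out, and the cause was not tested. The counts of members at a 10% NMD-class share stayed between 10 and 14, and at a 10% retained_intron share between 12 and 19, under other thresholds, filters, tables and libraries. The count of members called between the libraries was 0 under all 6 alternatives, with 21 to 25 past the adjusted p at any fold. Depth limits Srsf12 (70 counts in replicate 2 and 55 in replicate 1). How a gene's reads are split among its transcripts, and which copies they are given to, limits the shares.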
